A study of Mus musculus with 102 samples.

Results

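DNA methylation in TTKO cells was compared with that in WT cells at day 0, before any transduction, at single CpGs of 65 amplicons. The comparison comprised 3 TTKO and 3 WT samples, 6 of the 102 samples of the series, and was made by joining the amplicon tables of both lines by CpG position. TTKO cells are mouse embryonic stem cells (ESCs) in which all alleles of Tet1, Tet2 and Tet3 were mutated by CRISPR, and they derive from 1 clone. WT cells are the parental ESC line with functional TET enzymes. Both lines carry Dnmt3a and Dnmt3b alleles flanked by loxP sites on a C57BL6/J background, and at day 0 these alleles were intact in both. Cells were kept on feeder cells before transduction. The labels name 3 replicates a line, which the study's methods call biological without saying how they were kept apart, and p-values measure the spread between these samples. The tables of the 2 lines were deposited separately and TTKO is a single clone, so the effects of TET loss, of the clone and of any batch that differed between the lines cannot be told apart. No amplicon lies in or nearest to a Tet gene, and the genotype was therefore taken from the labels.

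Methyl groups on the cytosines of CpGs are placed by DNMT3A and DNMT3B and copied to the new strand by DNMT1 after replication. TET enzymes oxidise 5-methylcytosine, which leads to its loss, and in ESCs they act at distal regulatory elements. Such elements often appear as low-methylated regions (LMRs), which are bound by transcription factors and have intermediate methylation, whereas CpG-rich promoters form unmethylated regions (UMRs). In amplicon bisulfite sequencing, unmethylated cytosines are converted before the chosen regions are amplified, and the level of a CpG is the fraction of its reads in which the cytosine remained. In the study's model of opposing rates, the ratio of methylated to unmethylated copies of a CpG at steady state equals the methylation rate over the demethylation rate. The log2 odds ratio of TTKO over WT given here is the log2 fold difference in that ratio. Bisulfite sequencing does not separate 5-methylcytosine from 5-hydroxymethylcytosine, so the levels are sums of both.

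The 405 CpGs had a level in all 6 samples. Between 2304910 and 2897816 reads covered CpGs per sample, and the median coverage was between 3421 and 5013 reads, with 136 reads at the least. These are PCR products without molecular identifiers, so coverage gives counting error only. The median SD between replicates was 1.83 percentage points in WT and 1.82 percentage points in TTKO cells, and every pair of replicates of a line differed by far more than sampling noise, with a mean chi-square per CpG between 27.4 and 46.3. No replicates were therefore merged.

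The deposited region list sorts the amplicons into 9 types. There were 9 UMRs with 82 CpGs, 18 constitutive LMRs labelled with REST (98 CpGs), 5 constitutive LMRs labelled with CTCF (23 CpGs) and 13 other constitutive LMRs (59 CpGs). Further LMRs were labelled specific to embryonic stem cells (ES, 6 amplicons with 64 CpGs) or to neuronal progenitors (NP, 7 amplicons with 39 CpGs). Fully methylated regions (FMRs) numbered 5, with 22 CpGs, and 1 amplicon each was labelled metIsland and Methylated_UMR. REST is a zinc finger repressor of neuronal genes and CTCF is the zinc finger protein that anchors chromatin loops. Amplicons are named below as deposited, with the prefix before REST or CTCF left out and ES or NP standing for ES-specific_LMR and NP-specific_LMR. Amplicons within 2000 bases of each other share a locus, which makes 61 loci in all and 10 loci among the other constitutive LMRs. Some levels in WT cells went against the type name: ES28, labelled an ES-specific LMR, was at 82.3% and LMR7, an LMR by name, at 68.6%, whereas the FMRs FMR4 and FMR5 were at 55.8% and 59.6%.

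The mm9 sequences of 11 amplicons that carry the results are given from the first to the last measured CpG with 10 bases on each side, on the plus strand, 5′ to 3′. Capitals mark the measured CpGs, so that their spacing can be read beside the levels given for them.
The 3 other constitutive LMRs with the largest gains are LMR16 in an intron of Cradd and the neighbours LMR46 and LMR59 in an intron of Akap6.
LMR16, chr10:94717132-94717392: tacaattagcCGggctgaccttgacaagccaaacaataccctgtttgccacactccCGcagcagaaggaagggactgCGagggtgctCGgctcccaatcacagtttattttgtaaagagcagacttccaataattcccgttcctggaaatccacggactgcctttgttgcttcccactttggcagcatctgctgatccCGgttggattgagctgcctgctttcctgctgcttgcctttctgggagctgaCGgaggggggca
LMR46, chr12:54133614-54133849: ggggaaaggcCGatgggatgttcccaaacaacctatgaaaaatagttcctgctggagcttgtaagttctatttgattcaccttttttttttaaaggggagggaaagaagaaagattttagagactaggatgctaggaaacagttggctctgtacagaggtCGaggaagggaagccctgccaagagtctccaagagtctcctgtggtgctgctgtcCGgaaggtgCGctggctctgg
LMR59, chr12:54133862-54134066: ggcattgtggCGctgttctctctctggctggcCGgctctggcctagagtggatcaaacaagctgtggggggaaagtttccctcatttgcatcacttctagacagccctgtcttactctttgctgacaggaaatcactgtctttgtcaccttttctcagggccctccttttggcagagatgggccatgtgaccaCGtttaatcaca
ES33 in an intron of Zfp704 gained most among the ES-specific LMRs.
ES33, chr3:9601410-9601646: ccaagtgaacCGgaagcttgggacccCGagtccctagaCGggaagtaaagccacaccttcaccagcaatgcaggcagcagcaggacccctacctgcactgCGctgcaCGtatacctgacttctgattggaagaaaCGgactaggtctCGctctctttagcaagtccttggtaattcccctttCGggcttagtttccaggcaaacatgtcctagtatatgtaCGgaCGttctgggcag
REST75, REST56 and CTCF48 are intergenic and held CpGs that differed widely within a single amplicon.
REST75, chr5:150291055-150291277: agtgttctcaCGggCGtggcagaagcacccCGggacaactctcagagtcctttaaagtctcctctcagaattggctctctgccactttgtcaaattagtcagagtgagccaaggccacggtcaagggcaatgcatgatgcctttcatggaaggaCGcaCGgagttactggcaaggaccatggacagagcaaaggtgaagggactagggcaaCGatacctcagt
REST56, chr4:153053402-153053607: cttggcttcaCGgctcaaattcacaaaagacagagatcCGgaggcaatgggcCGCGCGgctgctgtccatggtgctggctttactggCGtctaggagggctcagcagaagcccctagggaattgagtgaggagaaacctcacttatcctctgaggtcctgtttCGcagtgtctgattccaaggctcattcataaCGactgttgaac
CTCF48, chr10:3270025-3270203: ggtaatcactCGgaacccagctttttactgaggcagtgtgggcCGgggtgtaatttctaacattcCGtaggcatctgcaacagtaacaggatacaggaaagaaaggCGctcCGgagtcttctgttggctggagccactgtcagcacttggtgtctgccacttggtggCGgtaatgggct
NP41 and FMR5 had the largest gain of their type.
NP41, chr7:78616642-78616852: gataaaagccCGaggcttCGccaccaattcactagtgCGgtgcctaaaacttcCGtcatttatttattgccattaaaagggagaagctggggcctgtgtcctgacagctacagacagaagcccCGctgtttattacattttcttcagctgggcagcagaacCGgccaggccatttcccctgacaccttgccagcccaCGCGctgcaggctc
FMR5, chr11:68769048-68769189: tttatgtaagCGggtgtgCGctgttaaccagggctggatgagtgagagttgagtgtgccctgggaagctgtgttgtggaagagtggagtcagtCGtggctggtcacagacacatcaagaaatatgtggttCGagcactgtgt
UMR17 holds 2 CpGs called lower, and UMR18 is the UMR with the largest gain.
UMR17, chr10:36693866-36694028: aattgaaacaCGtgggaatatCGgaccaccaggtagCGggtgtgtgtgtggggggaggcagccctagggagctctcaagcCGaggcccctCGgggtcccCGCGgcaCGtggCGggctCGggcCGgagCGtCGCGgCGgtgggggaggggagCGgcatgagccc
UMR18, chr4:135690685-135690886: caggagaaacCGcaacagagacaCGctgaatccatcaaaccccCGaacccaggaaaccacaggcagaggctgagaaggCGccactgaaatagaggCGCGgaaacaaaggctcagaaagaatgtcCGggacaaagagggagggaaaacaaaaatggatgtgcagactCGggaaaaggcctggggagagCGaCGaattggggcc

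Over all 405 CpGs, mean methylation was higher in TTKO cells. The mean level was 27.4%, 26.7% and 27.1% in the WT replicates and 42.3%, 41.7% and 41.3% in the TTKO replicates. The groups did not overlap, and TTKO exceeded WT by 14.7 percentage points (exact two-sided permutation test, p = 0.1, the smallest that 3 against 3 allow). Per CpG, a quasi-binomial logistic model with limma's moderated dispersions called 240 CpGs higher in TTKO (59.3% of those tested) and 6 lower (1.48%) at a Benjamini-Hochberg adjusted p below 0.05. In 247 CpGs (61.0%) every TTKO replicate lay above every WT replicate, and in 10 (2.47%) every TTKO replicate lay below. The median log2 odds ratio was 1.17. By amplicon, with reads summed over CpGs, 51 of 65 were higher (78.5%) and 2 lower (3.08%).

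**Figure D1:**
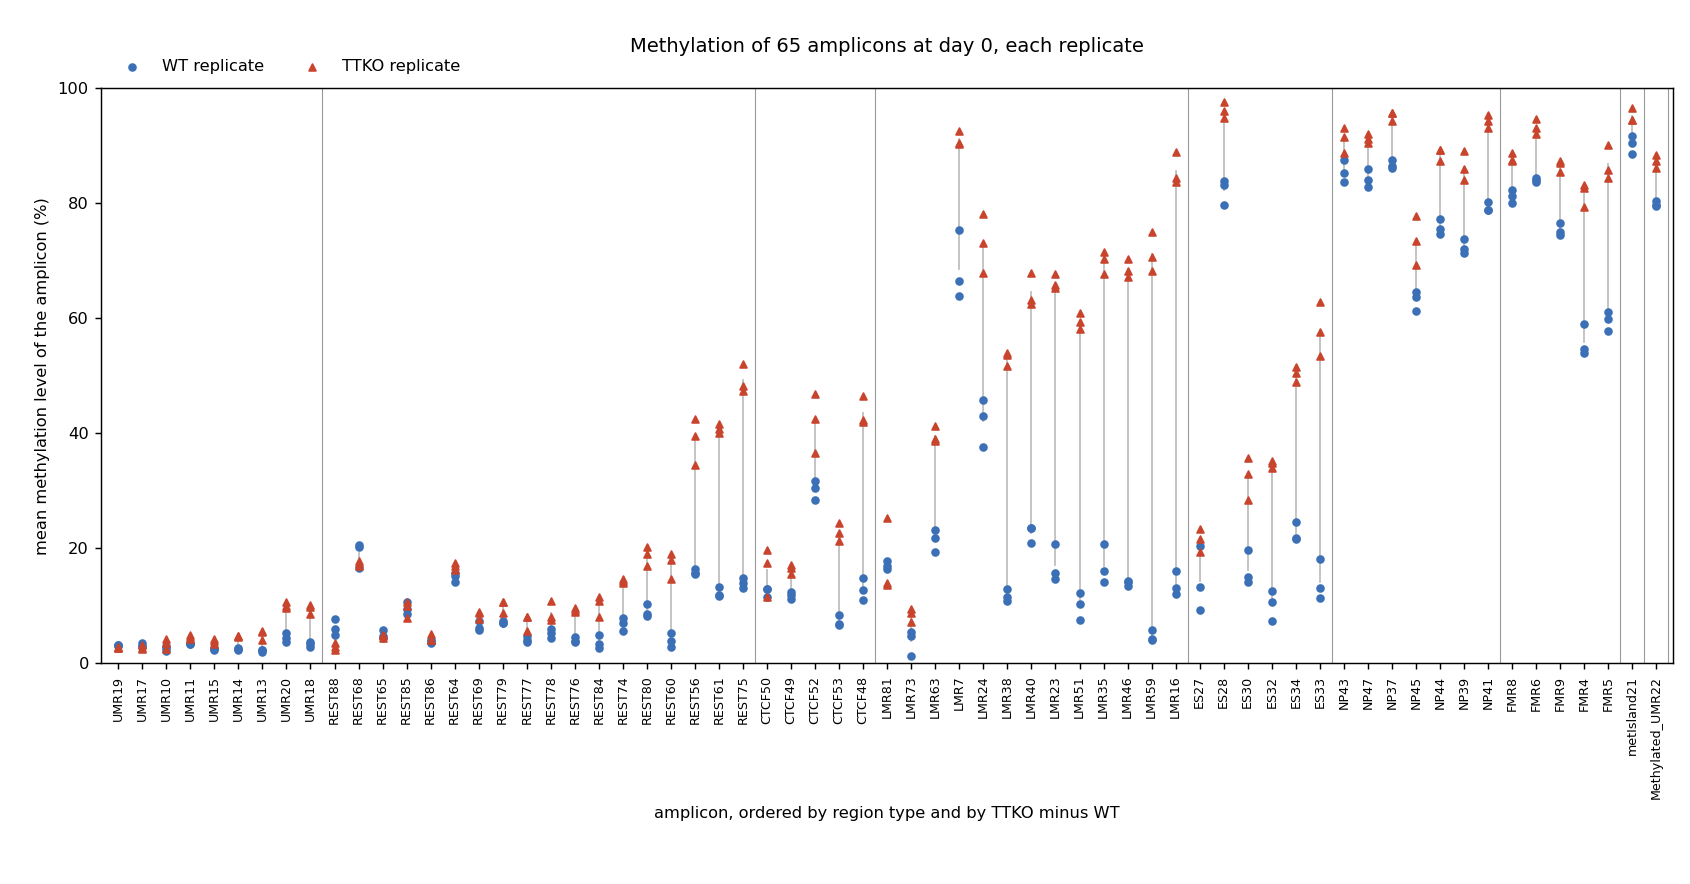
Mean methylation level (%) of each of the 65 amplicons at day 0, with 3 WT replicates as circles and 3 TTKO replicates as triangles, grouped by region type and ordered by the difference; grey lines join the means of the lines. The largest difference is that of LMR16, from 13.7% to 85.7%, whereas most UMRs and several REST amplicons lie below 10% in both lines.

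The starting level did not fix the outcome. Of 271 CpGs below 20% in WT cells, 177 stayed below 20% in TTKO cells, 84 lay between 20% and 80% and 10 above 80%. All 10 that crossed from below 20% to above 80% lay in constitutive or ES-specific LMRs, 5 of them in LMR16. Of 78 CpGs between 20% and 80% in WT cells, 43 exceeded 80% in TTKO cells. The 56 CpGs above 80% in WT cells had little room on the percent scale, with a median difference of 6.64 percentage points, but their median log2 odds ratio of 1.22 was above the 0.84 of the lowest class. Levels below 20% in WT cells therefore held both the largest gains, up to 83.5 percentage points, and the CpGs that hardly differed.

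**Figure D2:**
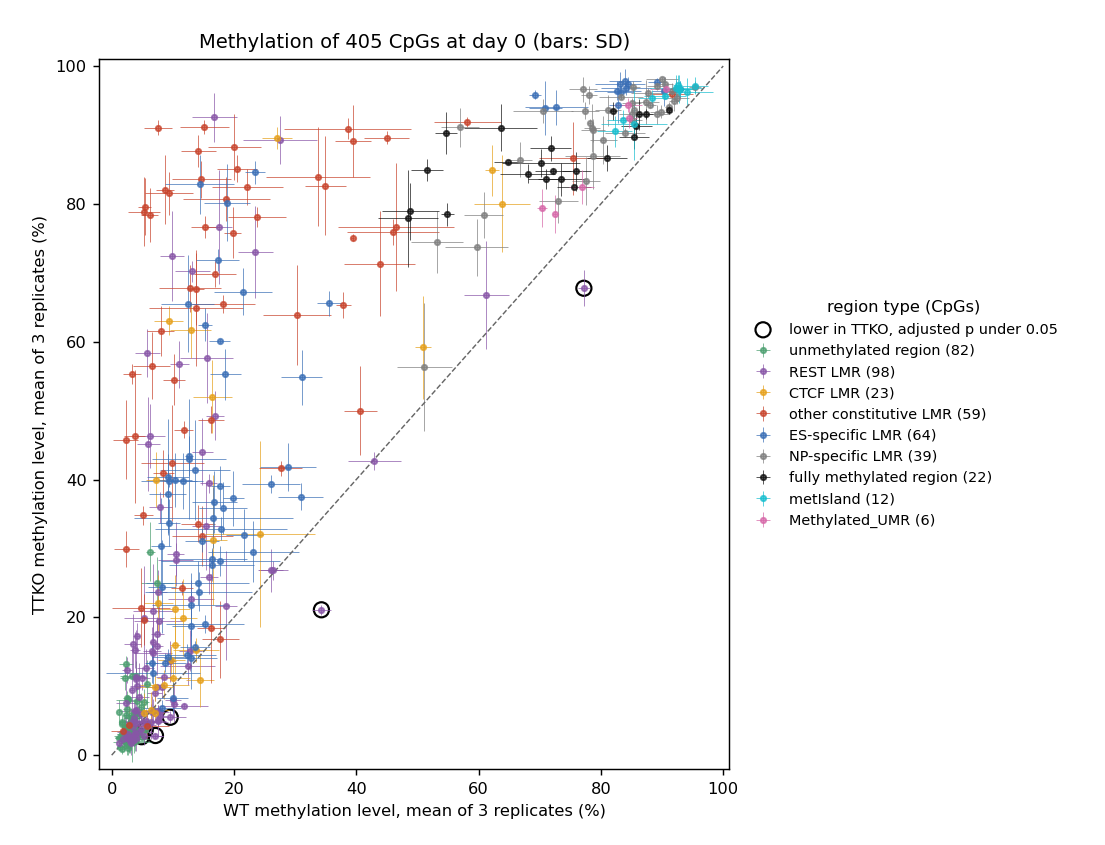
Mean level (%) of each of the 405 CpGs in TTKO against WT cells at day 0, coloured by region type, with SDs of 3 replicates as bars and the line of equality dashed; circled points are the 6 CpGs called lower. CpGs of other constitutive LMRs reach from below 10% in WT cells to above 80% in TTKO cells, and UMR CpGs stay at the lower left.

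Other constitutive LMRs, which are low in several cell types and carry neither a REST nor a CTCF label, gained most. Their mean level was 21.2%, 20.5% and 20.1% in the WT replicates and 62.6%, 61.6% and 60.3% in the TTKO replicates, a difference of 40.9 percentage points. Of their 59 CpGs, 51 were higher (86.4%, against 59.3% of all CpGs) and none was lower, and the median log2 odds ratio was 3.42. The difference exceeded that of the remaining CpGs by 30.6 percentage points. In this and every other comparison between lines or types over sample means, 3 against 3 samples give an exact permutation p of 0.1 at best, which no adjustment over the 9 types can bring below 0.05.

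LMR16 lies within Cradd, which encodes a death domain adaptor of caspase-2. Its mean over 6 CpGs was 12%, 16% and 13.0% in WT and 88.9%, 83.8% and 84.5% in TTKO cells. The gain was almost even along the 261 bases shown, between 68.2 and 76 percentage points per CpG (log2 odds ratio of the amplicon 5.28 ± 0.27 SE, adjusted p = 3.2e-06 by the quasi-binomial model with limma). The neighbouring LMR46 and LMR59 lie within Akap6, an anchoring protein for protein kinase A. Mean levels in LMR59 were 5.81%, 3.94% and 4.22% in WT and 68.2%, 74.9% and 70.7% in TTKO cells. The CpG with the largest odds ratio of all, at chr12:54133829 in LMR46, had 10.0%, 5.47% and 7.22% in WT and 90.6%, 90.3% and 92.3% in TTKO cells (log2 odds ratio 7.04 ± 0.50 SE, adjusted p = 1.2e-05 by the same model). Its neighbour 55 bases upstream reached only 29.9% ± 2.6 (SD, n = 3) in TTKO cells, from 2.4% ± 2.0 in WT cells, so this locus was not even. In LMR51, which spans an intron and a coding exon of St7, the CpG at chr6:17856501 rose from 4.48%, 1.91% and 0.46% to 41.7%, 43.3% and 52.4%.

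The smallest differences of this type were at LMR81 and LMR73. LMR73, within Trak1, an adaptor of kinesin motors on mitochondria, had 5.43%, 4.71% and 1.30% in WT and 7.12%, 9.34% and 8.72% in TTKO cells (log2 odds ratio 1.26 ± 0.52 SE, adjusted p = 0.057 by the model with limma, 0.024 in limma on logit levels and 0.0048 with a fixed over-dispersion). Its groups did not overlap. LMR81 had 17.0% in WT and 17.6% in TTKO cells over 2 CpGs, with 25.3% in TTKO replicate 1 against 13.5% and 14% in the others. At LMR40, 14 CpGs lay between 3.7% and 46.0% in WT cells, and all 14 were higher in TTKO cells, between 33.6% and 89.6%.

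ES-specific LMRs are low in ESCs and methylated in other cells, as enhancers active in stem cells are. Their mean level was 30.6%, 27.7% and 29.4% in WT and 49.1%, 49.9% and 48.5% in TTKO cells, a difference of 20.0 percentage points. Of 64 CpGs, 56 were higher (87.5%, against 59.3% of all CpGs) and none lower, with a median log2 odds ratio of 1.78. ES33, within the zinc finger gene Zfp704, had 11.2%, 13.0% and 18.1% in WT and 62.8%, 57.6% and 53.4% in TTKO cells, and all of its 10 CpGs were higher (log2 odds ratio 3.15 ± 0.24 SE, adjusted p = 2.0e-05 by the model with limma). Its CpG at chr3:9601517 went from 9.67%, 12.9% and 20.6% to 85.3%, 85.2% and 77.9%. The 3 CpGs at the left of the sequence shown rose to between 30.3% and 40.3% in TTKO cells. ES34, in a coding exon of Calhm2, a calcium homeostasis modulator, had 21.7%, 21.6% and 24.5% in WT and 50.4%, 51.5% and 49.0% in TTKO cells.

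ES27, in Slx1b, which encodes the catalytic part of a structure-specific endonuclease, differed least in this type and varied most between replicates. Its mean over 20 CpGs was 20.4%, 13.1% and 9.21% in WT and 19.4%, 21.5% and 23.3% in TTKO cells, so that WT replicate 1 lay among the TTKO replicates (log2 odds ratio 0.93 ± 0.27 SE, adjusted p = 0.015 by the model with limma). The log2 odds ratio was 0.56 without WT replicate 3, and the call was lost with unmoderated dispersions (adjusted p = 0.064) and with all 42 day 0 and mock samples in 1 fit (0.053). The CpG at chr7:133835976 had 31.6%, 10.5% and 7.80% in WT and 31%, 33.0% and 39.5% in TTKO cells, and that at chr7:133836139 had 30.3%, 12.4% and 10.8% against 32.3%, 31.7% and 34.8%. Both CpGs were called higher (adjusted p = 0.015 and 0.010), and both calls were lost without WT replicate 3 (0.066 and 0.052) and with unmoderated dispersions (0.094 and 0.072), the first also without WT replicate 2 (0.056). ES28, which was already methylated in WT cells, rose to 96.2% with all 13 CpGs higher.

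REST LMRs differed less and unevenly. Their mean level was 10.1%, 9.53% and 9.50% in WT and 19.6%, 18.6% and 19.7% in TTKO cells, a difference of 9.60 percentage points. Of 98 CpGs, 37 were higher (37.8%, against 59.3% of all CpGs), 4 lower and 57 not called. Of 90 CpGs below 20% in WT cells, 69 stayed below 20% in TTKO cells. In contrast, 6 of the 39 CpGs of other constitutive LMRs that were below 20% in WT cells did so. The REST difference minus that of the remaining CpGs was -6.77 percentage points (exact permutation p = 0.1, the smallest possible), -2.50 with a minimum of 1000 reads and -11.3 with amplicons weighted alike. REST75 gained most, from 14%, 14.7% and 13.1% in WT to 52.0%, 47.3% and 48.3% in TTKO cells (log2 odds ratio 2.58 ± 0.11 SE, adjusted p = 1.4e-06 by the model with limma). Its last CpG, at chr5:150291266, had 15.3%, 21.1% and 14.1% in WT and 94.2%, 94.9% and 88.5% in TTKO cells. REST61, within the non-coding gene Gm13115, went from 11.9%, 13.2% and 11.7% to 41.6%, 40.0% and 40.7%. At the other end, REST85 had 8.57%, 9.33% and 10.7% in WT and 9.84%, 10.6% and 7.75% in TTKO cells, with overlapping groups and a log2 odds ratio of -0.05 ± 0.18 SE (adjusted p = 0.81 by the same model), whose sign turned without WT replicate 3 or TTKO replicate 3.

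The blocks AG, CC, GG and AG in this order with 2 free bases between neighbours, a core of the REST motif, were searched on both strands and found in the central 300 bases of 10 of 18 REST regions and in 2.31% of 32851 RefSeq promoter windows of the same length. Over the whole amplicons 11 of 18 REST regions held them, with 59 CpGs. The 2 CpGs inside the letters had mean levels of 3.74% in WT and 3.47% in TTKO cells. The 20 CpGs 1 to 25 bases away had 6.78% and 18.4%, the 12 CpGs 26 to 75 bases away 11% and 36.8%, and the 25 CpGs farther away 13.0% and 26.3%. Differences of over 40 percentage points and of near 0 both occurred within 25 bases of the letters, so distance alone did not order the CpGs. REST75 holds AGGACCATGGACAG at chr5:150291227-150291240, with the CpG that gained most 26 bases beyond it. Regions without the letters, 7 in number, had a mean of 8.99% in WT and 10.8% in TTKO cells, against 10.2% and 25% for regions with them; no test of this split was made.

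CTCF LMRs had 17.5%, 17.4% and 19% in WT and 36.1%, 33.5% and 29.9% in TTKO cells, a difference of 15.2 percentage points, with 12 of 23 CpGs higher, a share near the 59.3% of all CpGs, and none lower. The difference departed from that of the remaining CpGs by 0.50 percentage points (3.34 with a minimum of 1000 reads), and its sign turned when amplicons were weighted alike, on the logit scale and without TTKO replicate 1. CTCF48 had 11%, 12.8% and 14.8% in WT and 46.5%, 42.3% and 41.9% in TTKO cells (log2 odds ratio 2.43 ± 0.12 SE, adjusted p = 3.1e-06 by the model with limma). In this amplicon the CpG at chr10:3270090 rose from 27.1% ± 2.5 to 89.6% ± 1.6 (SD, n = 3), whereas its neighbour 22 bases to the left had 10.3% ± 0.9 and 16% ± 4.2. CTCF53 had 6.83%, 6.66% and 8.39% in WT and 24.4%, 22.6% and 21.2% in TTKO cells. CTCF50 had 12.9%, 12.9% and 11.5% against 17.4%, 19.7% and 11.6%, and was called only without TTKO replicate 3. The CpG at chr14:20659367 in CTCF52 had the widest spread of all, with 23.6%, 15.6% and 33.6% in WT and 45.8%, 31.8% and 18.7% in TTKO cells. The blocks CCA, AG and GGC with 2 free bases between neighbours, part of the CTCF motif, were searched likewise and present in 3 of 5 CTCF regions and in 2.43% of the promoter windows, and the 5 CpGs in them or within 25 bases lay between 6.40% and 13.8% in WT and between 6.58% and 20.0% in TTKO cells, with 1 called higher.

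**Figure D3:**
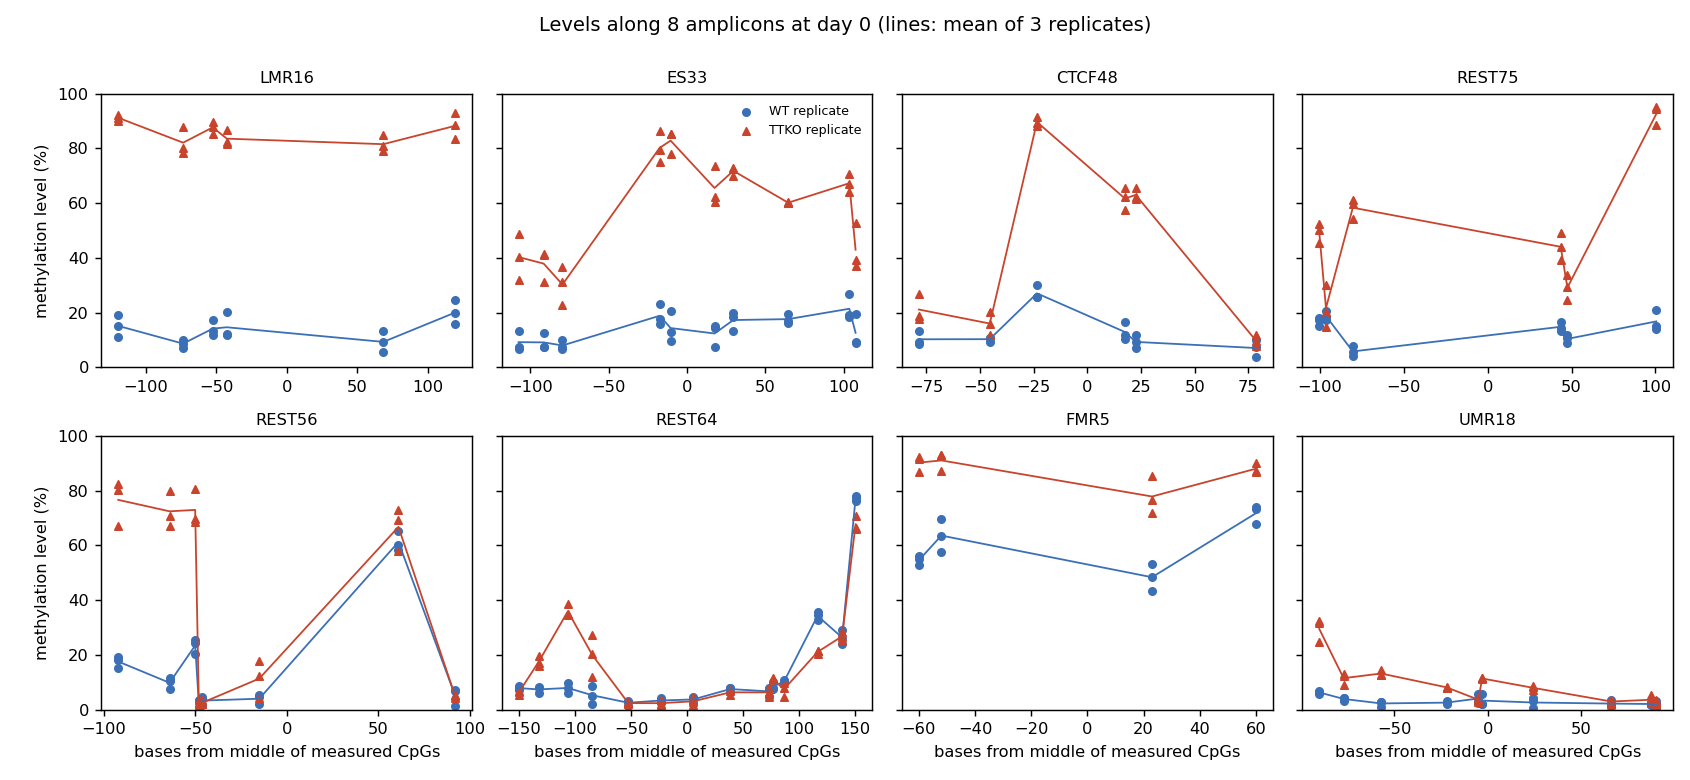
Methylation level (%) of each replicate along 8 amplicons at day 0, by distance in bases from the middle of the measured CpGs, with lines through the means of 3 replicates; WT circles, TTKO triangles. LMR16 and FMR5 are raised along their whole length, CTCF48, REST75 and REST56 at some CpGs only, and REST64 is raised at the left and lowered at the right.

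Regions that are highly methylated in ESCs were higher still in TTKO cells. NP-specific LMRs, which become low in neuronal progenitors, had 80.1%, 79.7% and 81.6% in WT and 91.4%, 91.0% and 90.1% in TTKO cells, with 32 of 39 CpGs higher. FMRs had 70.8%, 70.1% and 72.3% in WT and 86.8%, 87.1% and 86.0% in TTKO cells, with 20 of 22 CpGs higher. Neither type had a CpG called lower, and the shares called higher were 82.1% and 90.9%, against 59.3% of all CpGs. Their median log2 odds ratios were 1.33 and 1.23, above the 0.47 of REST LMRs although the REST CpGs started far lower. Against the remaining CpGs, the NP-specific difference was 4.84 percentage points smaller and the FMR difference 0.87 percentage points larger, and both signs turned on the logit scale. With a minimum of 1000 reads the values were -2.32 and 3.70 percentage points, and with amplicons weighted alike the FMR value was 0.25.

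FMR5, within Arhgef15, had 59.9%, 57.9% and 61.0% in WT and 90.2%, 85.9% and 84.4% in TTKO cells. FMR4, within the calcium pump gene Atp2b2, had 53.9%, 54.6% and 59.0% against 82.6%, 83.1% and 79.3%. These 2 were the least methylated of the FMRs in WT cells, and the others were between 75.4% and 84.0%. FMR8, in the signalling adaptor gene Traf3, had 82.4%, 80.1% and 81.3% in WT and 87.4%, 88.8% and 87.5% in TTKO cells. NP41 had 78.9%, 78.8% and 80.3% in WT and 94.3%, 93.2% and 95.3% in TTKO cells (log2 odds ratio 2.07 ± 0.12 SE, adjusted p = 5.7e-06 by the model with limma). Along NP41 the gain was 34.2 percentage points at the first CpG, which was at 57.0% in WT cells, and 1.59 at the last, which was at 95.4%. NP39, in the F-box gene Fbxl17, had 73.8%, 71.3% and 72.1% against 89.1%, 84.1% and 85.9%. NP43, within the fibroblast growth factor receptor gene Fgfr2, had 85.4%, 83.7% and 87.5% against 93.1%, 91.5% and 88.7%. All replicates of TTKO lay above those of WT in each of these amplicons.

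The 2 types with a single amplicon were highly methylated in both lines. The metIsland amplicon, in a coding exon of AU022751 on chromosome X, had 88.6%, 91.7% and 90.4% in WT and 96.6%, 94.5% and 94.5% in TTKO cells, with 7 of 12 CpGs higher, again near the 59.3% of all CpGs. Methylated_UMR22 lies 525 bases from the start of Tuba3a, an alpha-tubulin gene, and had 79.6%, 79.8% and 80.3% in WT and 88.4%, 86.2% and 87.3% in TTKO cells, with all 6 CpGs higher.

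UMRs stayed low in both lines. Their mean level was 3.10%, 3.05% and 2.71% in WT and 4.75%, 4.38% and 4.70% in TTKO cells, a difference of 1.66 percentage points, and 80 of 82 CpGs remained below 20%. The model called 19 CpGs higher (23.2%, against 59.3% of all CpGs) and 2 lower. Their difference was 16.4 percentage points smaller than that of the remaining CpGs (exact permutation p = 0.1, the smallest possible), and it stayed smaller on the logit scale. UMR18 lies 8627 bases from Id3, an inhibitor of helix-loop-helix factors, and had 3.59%, 3.22% and 2.74% in WT and 8.60%, 9.79% and 10.2% in TTKO cells (log2 odds ratio 1.65 ± 0.12 SE, adjusted p = 2.0e-05 by the model with limma). Its leftmost CpG reached 29.5% ± 4.3 in TTKO cells from 6.3% ± 0.7 in WT cells (SD, n = 3). UMR20 had 4.35%, 5.30% and 3.66% in WT and 10.5%, 10.0% and 9.65% in TTKO cells, and 1 of its 3 CpGs carried the gain. UMR17, 403 bases from the histone deacetylase gene Hdac2, had 3.40%, 2.95% and 2.72% in WT and 3.14%, 2.49% and 2.68% in TTKO cells over 16 CpGs (log2 odds ratio -0.16 ± 0.12 SE, adjusted p = 0.25 by the model with limma).

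The 6 CpGs called lower in TTKO cells lay in 4 amplicons, 3 of them REST LMRs. In the intergenic REST64 on chromosome 2, the CpG at chr2:23146904 had 34.5%, 32.6% and 35.8% in WT and 21.6%, 21.5% and 20.2% in TTKO cells (log2 odds ratio -0.95 ± 0.13 SE, adjusted p = 0.00044 by the model with limma). In the same amplicon chr2:23146938 had 78.1%, 76.2% and 77.4% in WT and 70.7%, 66.4% and 66.1% in TTKO cells. The groups did not overlap at either CpG. Yet 3 CpGs near the left end of REST64 were higher in TTKO cells, by up to 28.0 percentage points. Its mean level over 14 CpGs was therefore higher, at 15.6%, 14.1% and 15.2% in WT and 16.2%, 17.3% and 16.8% in TTKO cells, whereas the test on summed reads, which weights the deeper CpGs, called it lower (log2 odds ratio -0.22 ± 0.05 SE, adjusted p = 0.0040). This call was lost in limma on logit levels (adjusted p = 0.097), with a fixed over-dispersion (0.38) and with all 42 day 0 and mock samples in 1 fit (0.16).

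REST88, in an intron of Celf4, which encodes a neuronal RNA-binding protein, was the other amplicon called lower. It had 5.98%, 7.73% and 4.83% in WT and 2.26%, 2.71% and 3.50% in TTKO cells over 2 CpGs (log2 odds ratio -1.19 ± 0.29 SE, adjusted p = 0.0067 by the model with limma). Its CpG at chr18:25827148 had 8.57%, 6.66% and 6.25% against 2.58%, 3.21% and 2.76%. In REST68, within Tssc1, the CpG at chr12:29516092, 1 base beyond the REST letters, had 11.5%, 10.6% and 6.66% in WT and 5.31%, 4.73% and 6.46% in TTKO cells. This call (adjusted p = 0.030) was lost under 8 of the alternative settings, among them without WT replicate 2 (adjusted p = 0.20). In UMR17, chr10:36693887 had 4.48%, 4.65% and 5.55% against 2.29%, 3.07% and 2.67%, and chr10:36693902 had 5.18%, 5.94% and 5.34% against 3.03%, 4.47% and 3.46%. The call at chr10:36693887 (adjusted p = 0.0089) was lost with a fixed over-dispersion (0.093) and with all 42 day 0 and mock samples in 1 fit (0.10). The call at chr10:36693902 (adjusted p = 0.039) was lost under 11 alternatives, among them without WT replicate 1, 2 or 3 and without TTKO replicate 1 or 3 (adjusted p between 0.063 and 0.11). The call at chr2:23146904 held under every alternative run, and those at chr2:23146938 and chr18:25827148 were lost only in the fit of all 42 samples.

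Neighbouring CpGs of an amplicon are read from the same molecules, and their differences were mostly alike. The median absolute gap in TTKO minus WT between adjacent measured CpGs was 3.15 percentage points over 118 pairs 1 to 10 bases apart, 3.57 over 105 pairs 11 to 30 bases apart and 5.71 over 117 pairs farther apart. Amplicons accounted for 72.2% of the squared variation of the differences over CpGs, and region types for 40.2%. Gaps of 30 percentage points or more nevertheless occurred between 19 adjacent pairs, 2 of them within 10 bases. In REST56 the run of 3 CpGs that stands in the sequence as one block of capitals, 6 to 10 bases from the REST letters, had 73.0% ± 6.7, 2.5% ± 0.9 and 2.6% ± 0.7 in TTKO cells (SD, n = 3), and 23.5% ± 2.9, 2.5% ± 1.3 and 3.4% ± 1.5 in WT cells. The CpG at chr4:153053440 to the left of this run had 7.68%, 10.4% and 11.6% in WT and 70.7%, 67.0% and 79.7% in TTKO cells. Farther right, the CpG at chr4:153053565 was at 61.3% ± 3.7 in WT and 66.8% ± 7.8 in TTKO cells, so methylation and the absence of it stood side by side in both lines. REST61 showed a gap of 60.5 percentage points between CpGs 13 bases apart. The 3 amplicons with the widest internal range were REST75, REST56 and REST61.

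The annotation (GENCODE M1 on mm9) placed 200 CpGs between genes, 118 in introns and 67 in coding exons. Mean levels in WT and TTKO cells were 22.3% and 36.1% between genes, 31% and 49.5% in introns and 40.4% and 51.6% in coding exons. The model called 103, 80 and 47 of these CpGs higher, where 240 of all 405 CpGs (59.3%) were called higher. These groups differ in region type, so the values are descriptive. CpG density of the amplicon (observed over expected) and the difference between the lines had a Pearson's r of -0.23 and a Spearman's rank correlation of -0.11 across 65 amplicons, which share libraries. Within the 49 LMR amplicons r was -0.12 and the rank correlation 0.10, of opposite sign. None of the 65 amplicons had a gene of the lists for pluripotency (17 genes), imprinting (16), methylation machinery (9) or neuronal REST targets (13) as its host or nearest gene, so these lists were not measured.

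The same DNA contrast was available from SureSelect capture at day 0, where the 3 replicates of each line are joined in 1 column, so no test was possible. The capture samples may share cells with the amplicon samples. At the 259 CpGs covered by both assays, capture levels were on average 12.9% in WT and 26.9% in TTKO cells, and amplicon levels 16.2% and 31.2%. The differences, 14.1 and 15.1 percentage points, had a Pearson's r of 0.98 and a Spearman's rank correlation of 0.91 across these CpGs. Of 135 CpGs called higher in amplicons, 133 were higher in capture, and of 3 called lower 2 were lower. The share of uncalled CpGs that were higher in capture was not counted. Capture means were higher in TTKO cells in every region type with shared CpGs, so these counts do not test the single calls. Other constitutive LMRs went from 12.9% to 54.6% in capture over 33 CpGs, REST LMRs from 6.62% to 17.8% over 68 CpGs and UMRs from 1.45% to 2.50% over 71 CpGs. The CpG at chr12:54133829 had 5.0% and 86.7%, and that at chr10:36693887, lower in the amplicons, 3.6% and 0.5%. The other CpG of the same amplicon that was called lower was not lower in capture. In every region type with shared CpGs the capture means of both lines lay below the amplicon means.

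**Figure D4:**
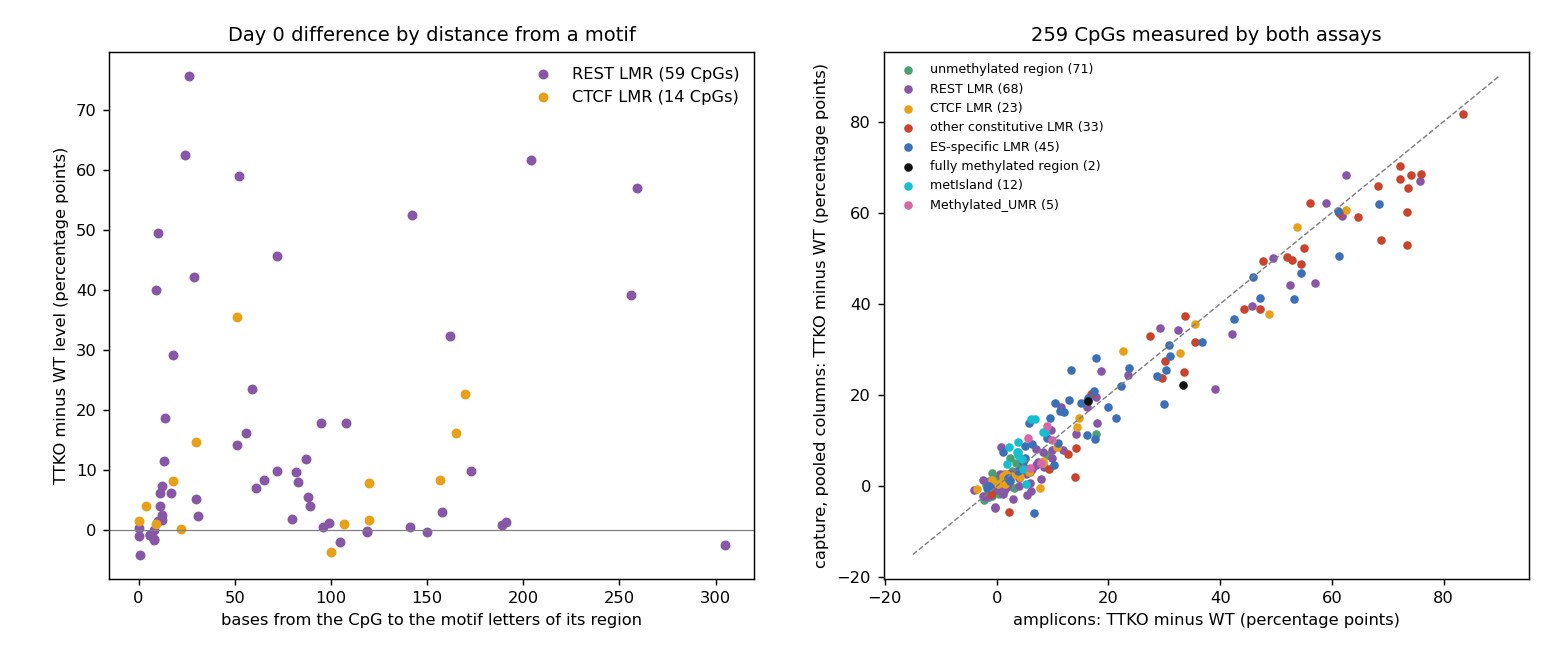
Left, TTKO minus WT level (percentage points) of 59 CpGs in REST and 14 in CTCF LMRs against the distance in bases to the motif letters of the region; right, the difference in capture (joined columns) against that in amplicons at 259 CpGs, with the line of equality dashed. Gains on the left occur at short and long distances, and points on the right follow the line, slightly below it for the largest gains.

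Mock-treated cells, which received buffer without Cre, gave the contrast again in other samples, with 3 replicates a line at days 4, 8, 10, 13, 17 and 29 and without feeders from the day after treatment. Over 331 CpGs with a level in all 42 samples, WT cells had 27.1%, 26.2% and 26.8% at day 0, but 39.7%, 36.9% and 33.9% at mock day 4 and 36.9%, 38.1% and 35.5% at mock day 8. They then had 33.1%, 30.3% and 28.9% on average at days 10, 13 and 17, and 28.6% at day 29. TTKO cells stayed between 39.1% and 42.4% on average throughout, against 40.3% at day 0. The difference between the lines was thus 13.6 percentage points at day 0 and 4.49, 4.51, 8.52, 12.1, 13.4 and 10.5 at the 6 mock days. Lines overlapped at day 4 only (exact permutation p = 0.2), and at the other days p was 0.1, the smallest possible (0.12 adjusted over 6 days).

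By CpG, the model called 16 of 381 higher in TTKO at mock day 4 (4.2%) and 2 lower (0.525%). It called 67 higher (16.9%) and 16 lower (4.03%) at day 8, 131 higher (35.2%) and 12 lower (3.23%) at day 10 and 171 higher (42.6%) and 8 lower (2.0%) at day 13. At day 17 these were 180 (44.4%) and 4 (0.988%), and at day 29 they were 162 (42.2%) and 20 (5.21%). The count higher at day 4 was 0 without TTKO replicate 2 or 3, 2 without WT replicate 1 or TTKO replicate 1 and 10 without WT replicate 2. It was 6 in limma on logit levels and 0 with the replicate number as a block. At day 8 leaving out WT replicates 1, 2 and 3 in turn gave 35, 37 and 43 higher. Counts of lower CpGs moved with single libraries at each mock day. At day 4 there were 7 without WT replicate 2, 4 without WT replicate 3, 1 without WT replicate 1 and 0 without any TTKO replicate, and at day 8 there were 4 without WT replicate 1 or 2, 9 without WT replicate 3 or TTKO replicate 2 and 10 without TTKO replicate 3. At day 10 there were 6 without TTKO replicate 2 and 7 without WT replicate 3 or TTKO replicate 3, and at day 13 there were 3 without WT replicate 2, 4 without WT replicate 1 or 3 and 5 without TTKO replicate 3. At day 17 there were 1 without TTKO replicate 2 and 2 without WT replicate 1, WT replicate 2 or TTKO replicate 1, and at day 29 there were 10 without WT replicate 2 or TTKO replicate 3, 11 without WT replicate 3, 12 without WT replicate 1 and 13 without TTKO replicate 1. Of the 240 CpGs higher at day 0, 226 were tested at mock day 29, where 214 had a log2 odds ratio above 0, 160 were called higher and 1 lower. At mock day 4, 153 of 227 were above 0 and 16 were called. The share of all tested CpGs above 0 was not counted, and mean levels over all CpGs were higher in TTKO cells at both days. These counts are therefore no test of the day 0 calls.

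**Figure D5:**
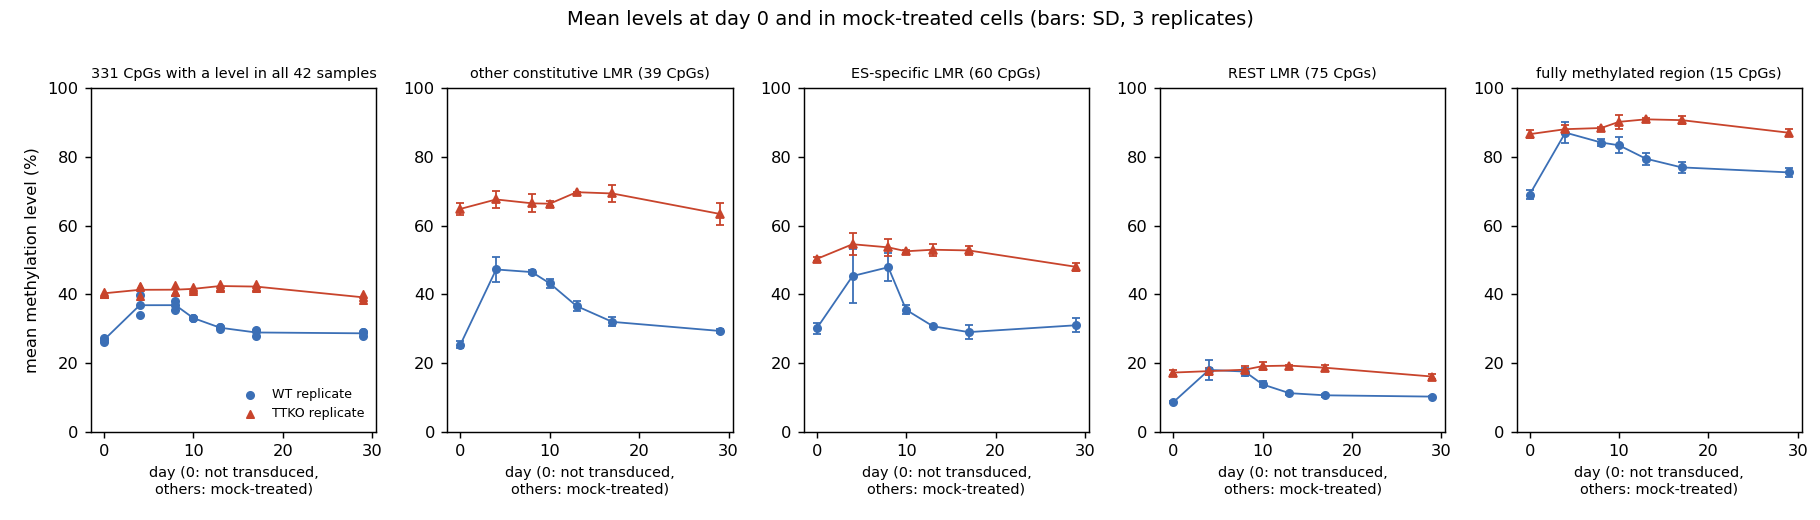
Mean methylation level (%) at day 0 and in mock-treated cells by day, WT circles and TTKO triangles; the left panel shows each replicate over 331 CpGs, the others the mean and SD of 3 replicates for 4 region types. WT levels are highest at days 4 and 8 and come down to 28.6% by day 29, while TTKO levels stay between 39.1% and 42.4%.

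The departure of WT cells at the early mock days differed in size between regions. Other constitutive LMRs in WT cells were at 25.3% at day 0, 47.2% at mock day 4 and 29.3% at day 29 over 39 CpGs, and in TTKO cells at 64.9%, 67.6% and 63.4%. REST LMRs had 8.54%, 18% and 10.2% in WT and 17.2%, 17.6% and 16% in TTKO cells, and FMRs 69.1%, 87.1% and 75.5% against 86.7%, 88.1% and 87.1%. UMRs had 2.95%, 3.44% and 2.61% against 4.61%, 3.37% and 3.43%. At REST75, WT cells had 13.9% ± 0.8 at day 0, 38.8% ± 8.3 at mock day 4 and 21.5% ± 1.0 at day 29, and TTKO cells had 49.2% ± 2.4, 48.2% ± 2.9 and 52.2% ± 1.5 (SD, n = 3). The lower level of TTKO cells at REST88 was also seen in the means at every mock day, with 5.6% to 8.4% in WT and 2.6% to 4.6% in TTKO cells. At REST64, whose mean was higher in TTKO cells at day 0, the mock means of TTKO cells lay below those of WT cells at the 5 days with values for both, from 21.8% against 14.3% at day 4 to 14.2% against 12.6% at day 29, in WT and TTKO cells. At LMR16 the mock means of WT cells were between 17.9% and 41.6%, and those of TTKO cells between 83.3% and 87.2%, so the lines stayed apart at each day with values.

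Whether the difference between the lines changed between day 0 and mock-treated cells was tested with an interaction term. Between day 0 and mock days 4, 8 and 10, the difference changed at 23 (6.04%), 95 (23.9%) and 24 CpGs (6.45%), a test added after the data were seen. Leaving out single libraries gave 0 to 66, 45 to 135 and 5 to 35 CpGs with a smaller difference at these days. For mock day 29, 0 of 384 CpGs passed in the quasi-binomial model, with 66 at an unadjusted p below 0.05, and 0 passed in limma on logit levels, with 57. At this day the difference over all CpGs was 3.09 percentage points smaller than at day 0 (exact permutation of conditions within lines, p = 0.01, 0.06 adjusted over 6 days).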

How the data were processed

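Bisulfite-converted amplicons were sequenced and aligned to mm9 by the authors with QuasR, and levels were quantified with AmpliconBiSeq. The deposited amplicon tables give a methylation level as a fraction, with levels under 100 reads left empty, and the coverage as a count of reads per CpG. The level times the coverage gave whole reads in 100% of cells (tolerance 1e-06). Capture levels (SureSelect, qMeth) were deposited as a percent with read counts, with replicates joined. The deposited rate tables on a log2 scale were not used.

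Samples were grouped by their labels. Methylated and unmethylated reads per CpG or amplicon entered a quasi-binomial logistic fit, two-sided, with 0.5 reads added (dispersions moderated by limma 3.58.1 in R 4.3.3 and not allowed below 1), and p-values were adjusted by Benjamini-Hochberg, with calls below 0.05. The fit was tested on simulated data. Sample means were compared by exact permutation (Python 3.11.15 with numpy 2.4.6), and correlations were computed with scipy 1.17.1. Day 0 samples had between 2304910 and 2897816 reads on CpGs. Alternatives were the replicate number as a block, each replicate left out, minima of 500 and 1000 reads, limma on logit levels, a fixed over-dispersion of 0.0055, unmoderated dispersions, 5 reads added, all 42 day 0 and mock samples in 1 fit, amplicons weighted alike and logit means; for the capture, 150 reads. CpGs were annotated with GENCODE M1 on mm9. Promoter windows were from RefSeq.

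Named CpGs were the 10 with the largest odds ratios (at most 2 per amplicon), all lower ones and the 3 with the widest spread. Named amplicons were the 2 with the largest and the 1 with the smallest difference per type (3 CpGs or more), the lower ones and the 3 with the widest internal range; further amplicons (LMR46, LMR40, LMR51, LMR81, LMR7, ES28) were chosen after their values were seen. Members, lists and tests were chosen with earlier results of these data known. Same-numbered replicates of the lines had correlations of their deviations between -0.32 and -0.15, and the numbers were not used as pairs in the main fits. With 3 replicates a line, these values cannot tell whether same-numbered samples were handled together.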

Additional observations from a re-analysis of the deposited data

Results flagged for a closer look

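The difference between the lines was not the same at day 0 and in early mock-treated cells. By the interaction term of the quasi-binomial model, a test chosen after seeing the data, 23 of 381 CpGs differed between day 0 and mock day 4 (6.04%), of which 21 had a smaller and 2 a larger difference in mock-treated cells. At mock day 8 this held for 95 of 397 CpGs (23.9%), all with a smaller difference, and at mock day 10 for 24 of 372 (6.45%), 23 of them smaller. Mean WT levels stood 10.1, 10.1 and 6.36 percentage points above their day 0 level at these days, and mean TTKO levels 1.02, 1.06 and 1.30 points above. Over the sample means, the difference between the lines was smaller than at day 0 by 9.09, 9.07 and 5.06 percentage points (exact permutation of conditions within lines, p = 0.085, 0.095 and 0.1, adjusted p = 0.15 each over 6 days). The same test called 0 CpGs at days 13 and 17, with 43 and 25 at an unadjusted p below 0.05, and limma on logit levels also called 0, with 42 and 19. The study describes a slight rise in mock-treated WT cells between days 4 and 8. It proposes a side effect of the transduction steps rather than of Cre. The parts that the mock treatment and the move to feeder-free plates have in these values were not tested, since all mock samples had both and no day 0 sample had either.

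Single libraries moved these counts. At mock day 4 the number with a smaller difference was 0 without WT day 0 replicate 1, 1 without WT day 0 replicate 2 or any TTKO day 0 replicate, and 8 without WT day 0 replicate 3 or TTKO mock replicate 1. It was 34, 61 and 66 without WT mock replicates 1, 2 and 3. At mock day 8 it was 59, 52 and 52 without WT day 0 replicates 1, 2 and 3, 45, 62 and 47 without TTKO day 0 replicates 1, 2 and 3, and 60 without WT mock replicate 2. At mock day 10 it was 5, 10 and 11 without WT day 0 replicates 1, 2 and 3, 11, 10 and 10 without TTKO day 0 replicates 1, 2 and 3, and 35 without TTKO mock replicate 3. With limma on logit levels the counts were 5, 93 and 2, and at mock day 4 as many CpGs, 5, had a larger difference.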

How the results depend on the processing

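At day 0 the gain in TTKO cells kept its direction under every alternative run. Between 168 and 251 CpGs were called higher, and leaving out single replicates gave 206 to 223 higher and 4 to 8 lower CpGs, and 49 to 52 higher and 2 to 3 lower amplicons. With all 42 day 0 and mock samples in 1 fit 168 were higher, all among the 240, and 1 CpG and 1 amplicon were lower. Limma on logit levels and the fixed over-dispersion of 0.0055 each left 1 amplicon lower. With a minimum of 1000 reads, which leaves fewer CpGs to test, 177 were higher. The mean difference was 14.5 to 15.0 percentage points without single replicates and 12.1 at 1000 reads or more. Values of CTCF LMRs against the remaining CpGs turned to -2.75 with amplicons weighted alike, -0.16 on the logit scale and -0.76 without TTKO replicate 1, the lowest of the values without single replicates, which reached 1.96. On the logit scale those of NP-specific LMRs turned to 0.059 and of FMRs to -0.036. The log2 odds ratio of REST85 turned to 0.05 without WT replicate 3 and 0.15 without TTKO replicate 3, in a range from -0.21 to 0.15. The causes of these changes were not tested.

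The study does not state whether same-numbered replicates of the lines were handled together, and the main fits did not pair them. With the replicate number as a block, 216 CpGs were higher at day 0 (214 shared with the fit without it) and 4 lower, 50 amplicons were higher and 2 lower, and the mean difference was 14.7 percentage points (exact sign permutation, p = 0.25, the smallest 3 pairs allow). At mock day 4 the block gave 0 higher and 0 lower CpGs, and at mock day 8 it gave 5 lower. The interaction counts with the block were 15, 92 and 17 smaller at days 4, 8 and 10, and 0 at day 29.

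In mock-treated cells limma on logit levels called 6 higher and 1 lower at day 4, 7 lower at day 10 and 2 lower at day 17. Without single replicates the counts were 0 to 15 higher and 0 to 7 lower at day 4, and 35 to 71 and 4 to 11 at day 8. Lower CpGs numbered 6 to 10 at day 10, 3 to 11 at day 13, 1 to 3 at day 17 and 10 to 14 at day 29. Interaction counts were 0 to 1 at day 29 (1 without TTKO mock day 29 replicate 2), and, chosen after seeing the data, 0 to 66, 45 to 135, 5 to 35 and 0 to 4 at days 4, 8, 10 and 13. With 3 samples a line, permutation of samples between the lines within 1 day cannot pass 0.05.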
